A study of Mus musculus with 672 samples.

Results

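The comparison covers the step from lymphoid-primed multipotent progenitors (LMPPs) to all-lymphoid progenitors (ALPs) in the bone marrow of 2 control mice, 18218 and 18220. Its members are the single cells whose labels name a control LMPP or a control ALP. Of 264 such cells sorted, 208 were kept, out of 561 kept cells among the 672 of the whole series. A kept cell has at least 50000 reads on nuclear genes, at least 1000 such genes detected, at most 20% of its gene reads from mitochondrial genes and at most 50% of its reads from added ERCC spike-in RNAs. Reads of kept cells were summed per mouse and population, so that each mouse gives 1 library of each population. The 4 libraries held 47 and 47 LMPPs and 74 and 40 ALPs, and 72338775 to 137497554 gene reads.

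Both control mice carried Mbd3flox/flox, the floxed but undeleted alleles of a gene for a subunit of the NuRD chromatin complex. The series also holds 2 null mice, 18217 and 18219, with the deleted alleles Mbd3del/del, and a further population, the B cell-biased lymphoid progenitors (BLPs). All 4 mice were 7 weeks old, of strain C57BL6/129Ola, and marrow came from femurs and tibiae. The labels name neither a Cre driver nor a litter. LMPPs were sorted as lineage-negative, Sca-1+, c-Kit+ cells with high Flt3, no IL-7 receptor alpha and no B220. ALPs passed the same gate except that they carried IL-7 receptor alpha, and they lacked Ly6D and B220. BLPs carried both IL-7 receptor alpha and Ly6D. Within each mouse all populations came from the same marrow, and values below are given in the order mouse 18218, then mouse 18220.

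LMPPs are Flt3-high progenitors that can still give rise to myeloid and lymphoid cells and have largely lost the capacity to form platelets and red cells. ALPs are the next stage towards lymphocytes: they respond to interleukin 7 and can become B cells, T cells, natural killer cells and some dendritic cells. On the way to the B lineage the factor Ebf1 is switched on, the Rag proteins begin to cut antigen receptor genes and terminal transferase adds bases at the cuts, before Pax5 fixes the B cell fate.

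Transcripts of Flt3 and Il7r followed the gates in most cells, while those of Kit, Ly6a and Ly6d followed them less closely, as given further on. Every kept LMPP held at least 10 Flt3 reads (47 of 47 in each mouse), as did 73 of 74 and 38 of 40 ALPs. Il7r reads were found in 27.7% and 19.1% of LMPPs and 98.6% and 95% of ALPs when each cell was thinned to 50000 gene reads, the equal depth used for all shares below. Of the markers of mature cells, Ms4a1 of B cells stood below 1 CPM (counts per 1e6 gene reads, on scaled library sizes) in all 4 libraries, and Adgre1, Vcam1 and Ncr1 were too low to be tested, while Ighm, Sdc1, Ighd and Cd68 were read in both populations at the levels given further on. Against the gate, 2 ALPs of mouse 18220 held 610 and 355 reads of Cd3e, a chain of the T cell receptor complex. These cells also held 150 and 2507 reads of the receptor gene Trac and 224 and 1974 of Il2rb, with only 3 and 8 reads of Flt3, while the other 38 ALPs of that mouse held at least 365 Flt3 reads. No other control LMPP or ALP reached 10 Cd3e reads. Of the natural killer cell markers besides Ncr1, Gzma was too low to be tested. Klrb1c and Prf1 stood at 16.4 and 12.5 CPM in the ALPs of mouse 18220, on unscaled library size. Without the 2 cells they stood there at 11.6 and 12.8 CPM. Where a list or gene rests on the 2 cells, its value without them or their share of its reads is given, a choice made after seeing the data. The 4 libraries also differed in cells lost: of the ALPs, 44 of 84 were left out in mouse 18220 and 10 of 84 in mouse 18218, 43 of those 44 with under 50000 nuclear gene reads. Of the same 44, 43 were past the limit on ERCC reads and 43 past that on mitochondrial reads. In mouse 18218 these were 7 and 8 of 10. Whether the left-out cells differed in kind was not tested. Cells were sorted 1 per well, and 0 pairs of cells had identical counts. The median cell held 1586210 to 2340590 nuclear gene reads, and counts are reads without molecular identifiers, so limits on shares cover counting error only.

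Between the gates, 54 of 19903 genes tested passed the threshold of the edgeR quasi-likelihood test (Benjamini-Hochberg adjusted p below 0.05, 0.271% of genes). Of these, 35 were higher in ALPs (0.176%) and 19 lower (0.0955%), and 1745 genes had an unadjusted p under 0.05. The median log2 fold change over all genes was 0, with 9833 above and 9944 below it. The changes called ran from 1.00 to 9.09 upwards and from −1.54 to −9.12 downwards on the log2 scale. In all 54 genes both ALP libraries lay on the same side of both LMPP libraries, which was also so for 39.9% of all genes. That share is the background for each gene, called or not, whose populations are said below not to overlap. Each log2 change, the log2 fold change of ALP over LMPP, is given ± an approximate standard error, with n = 2 mice in each population, and adjusted p-values are from that edgeR test. With mouse as a block the test called 21 genes higher and 11 lower, and 24 of the 54 calls held. Over all genes tested DESeq2 called 920 and limma-voom 96. With the 1745 genes above, these totals are the background of the list counts given below. All 54 kept their direction under each of 17 alternatives, while fewer genes were called when 1 library or mouse was left out. As their libraries do not overlap, leaving 1 out could hardly turn a sign, so the kept directions add little support.

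**Figure D1:**
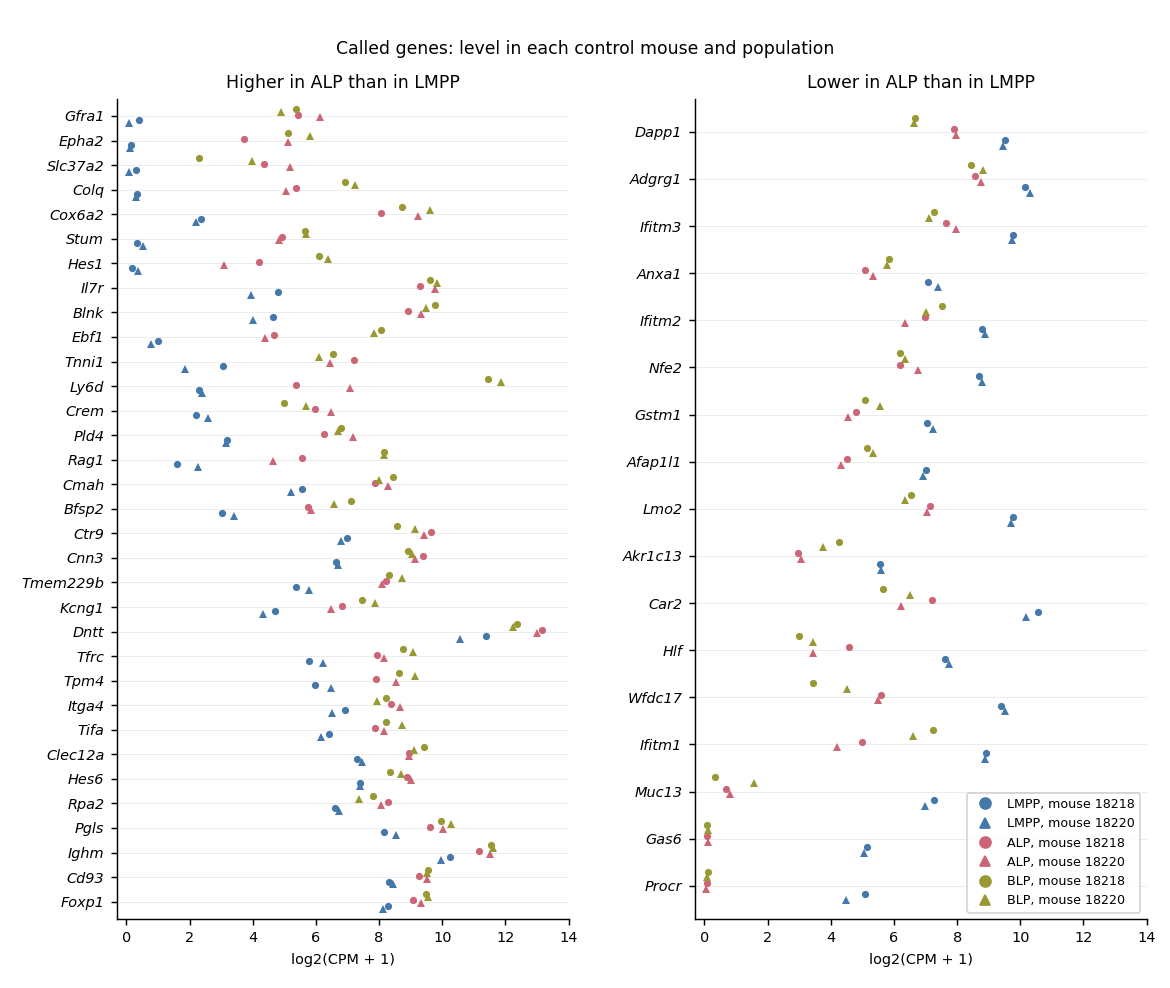
Levels of the 50 named genes that passed the test, as log2(CPM + 1) on the horizontal axis, in each control mouse (circle 18218, triangle 18220) and population (blue LMPP, red ALP, olive BLP). Genes higher in ALPs are on the left and genes lower in ALPs on the right; for each gene both red points lie on 1 side of both blue points.

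The gate itself was drawn on proteins, and its genes differed in how far their transcripts followed. Il7r, the receptor chain that splits the gates, stood at 26.7 and 14.5 CPM in LMPPs and 622 and 874 CPM in ALPs (log2 change 5.18 ± 0.34, adjusted p = 0.000869). Both ALP libraries lay far above both LMPP libraries, as the sort on its protein would set. Ly6d, whose protein the ALP gate excluded, nevertheless rose from 3.95 and 4.28 to 40.1 and 133 CPM (log2 change 4.39 ± 0.66, adjusted p = 0.0435, and adjusted p = 0.118 with mouse as a block). A Ly6d read was found in 29.8% and 12.8% of LMPPs and 29.7% and 32.5% of ALPs, and 1 cell gave 35.4% of the Ly6d reads of the ALPs of mouse 18220. Flt3, the growth factor receptor selected in both gates, stood at 1005 and 1002 CPM in LMPPs and 979 and 1019 CPM in ALPs and was read in nearly every cell (log2 change −0.01 ± 0.11; a value this close to 0 took the other sign with RLE size factors). Kit, also selected in both, had 406 and 503 CPM in LMPPs and 61.9 and 137 in ALPs (log2 change −2.19 ± 0.38, adjusted p = 0.0761). Reads of Kit were found in 95.7% and 95.7% of LMPPs and 51.4% and 57.5% of ALPs, and the 2 populations did not overlap in level. Ly6a, the gene of Sca-1, showed 501 and 298 CPM in LMPPs and 88.1 and 62.2 CPM in ALPs (log2 change −2.41 ± 0.63, adjusted p = 0.283). Mbd3, undeleted in these mice, stood at 48.1 and 137 CPM in LMPPs and 99.1 and 102 CPM in ALPs (log2 change 0.13 ± 1.51), and the LMPP values straddled the ALP values.

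Among 16 transcription factors of the B lineage, Ebf1 alone was called, and 11 members lay above 0 and 5 below (median 0.51). Ebf1 (chromosome 11, 44617317 to 45008091 in GRCm38) rose from 1.01 and 0.724 to 24.7 and 19.9 CPM (log2 change 4.69 ± 0.28, adjusted p = 0.000791). A minority of cells read it, 6.38% and 10.6% of LMPPs and 32.4% and 25% of ALPs, and the largest cell gave 24.4% and 43.7% of ALP reads. Pax5, the commitment factor downstream of Ebf1, stood at 0.267 and 1.51 CPM in ALPs, against 43.1 and 36.4 CPM in the BLPs of the same mice. The E protein Tcf3 (log2 change 0.48 ± 0.38, adjusted p = 0.780) and its partner Tcf12 (log2 change 0.28 ± 0.26) did not pass the test, nor did Myb (log2 change 1.18 ± 0.23, adjusted p = 0.116), at 145 and 218 CPM in LMPPs and 429 and 392 CPM in ALPs with no overlap between the populations. Spi1, which encodes PU.1, showed 329 and 389.7 CPM in LMPPs and 167 and 186 in ALPs (log2 change −1.02 ± 0.25, adjusted p = 0.237). Ikzf3 had 0.202 and 12.1 CPM in ALPs, and the 2 cells with Cd3e reads held 98.1% of its reads in mouse 18220, where it stood at 0.241 CPM on unscaled library size without them. Outside that list, Foxp1, a forkhead factor needed for early B cell development, rose from 311 and 279.6 to 541 and 638 CPM (log2 change 1.00 ± 0.14, adjusted p = 0.0367, or 0.119 with the block). It had the smallest rise of the 35 genes and was read in nearly all cells of both gates.

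Among the recombination genes Rag1 and Dntt rose. These are 2 of 10 members, of which 7 lay above 0 with a median of 1.03. Rag1, which cuts antigen receptor genes, went from 2.02 and 3.78 to 46.1 and 24.2 CPM (log2 change 3.60 ± 0.47, adjusted p = 0.0216, or 0.0654 with the block), with reads in 8.51% and 2.13% of LMPPs and 36.5% and 25% of ALPs. Its partner Rag2 stood at 39.8 and 27.7 CPM in LMPPs and 222 and 142 CPM in ALPs (log2 change 2.43 ± 0.44, adjusted p = 0.0904) and was read in 73.0% and 60% of ALPs. Dntt, the gene of terminal transferase, was already read in 97.9% and 91.5% of LMPPs, and its level rose from 2692 and 1517 to 9223 and 8218 CPM (log2 change 2.05 ± 0.27, adjusted p = 0.0216). In the thinned cells the median Dntt count was 85 and 47 reads per LMPP and 450 and 308.5 reads per ALP. The lower quartile was 55.5 and 3.5 reads per LMPP and 283.75 and 184.5 reads per ALP, and 16 of the 47 LMPPs of mouse 18220 held at most 5 reads. Dntt was thus read in nearly all cells of both gates, whereas Rag1 and Ebf1 were read in a minority of ALPs. Of the end-joining genes, Xrcc6 had 283 and 235 CPM in LMPPs and 697 and 656 CPM in ALPs (log2 change 1.38 ± 0.23, adjusted p = 0.0717), and Xrcc5, its partner in the Ku dimer, 44.2 and 54.7 CPM in LMPPs and 44.3 and 28.4 CPM in ALPs (log2 change −0.44 ± 0.35, adjusted p = 0.785). Lig4 was read in at most 2.7% of ALPs.

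Surrogate light chain genes of the pre-B cell receptor were low, while an adaptor of its signalling rose. Blnk, which links the receptor to its downstream kinases and lipases, rose from 23.9 and 15.1 to 478 and 640.1 CPM (log2 change 4.84 ± 0.55, adjusted p = 0.0154, or 0.0655 with the block). Reads of Blnk were found in 17.0% and 17.0% of LMPPs and 85.1% and 80% of ALPs. The gene lies near Dntt on chromosome 19 (Blnk from 40928927 to 40994535, Dntt from 41029275 to 41059525). Of the 16 members of the list only Blnk was called, with 11 above 0 and a median of 0.27. Blk, a Src family kinase of B cells, showed 0.768 and 0.449 CPM in LMPPs and 111 and 72.0 CPM in ALPs (log2 change 7.24 ± 1.13) and just missed the threshold (adjusted p = 0.0542, with 0.0171 in the fit with mouse as a block and 0.0499 without the 2 cells with Cd3e reads). The surrogate light chain genes Vpreb1 (0.242 and 1.20 CPM) and Igll1 (0.703 and 0.346 CPM) were low in ALPs. Cd79a was read in 18.9% and 2.50% of ALPs (15.1 and 0.941 CPM), so the 2 mice differed. Ighm, the constant region of the mu heavy chain, rose from 1224 and 1005 to 2289.9 and 2889 CPM (log2 change 1.22 ± 0.13, adjusted p = 0.0137, or 0.0575 with the block) and was read in 100% and 100% of ALPs. With no strand information in the sources used here, Ighm reads cannot be assigned to sense or antisense transcripts.

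The promoters of Rag1, Blnk and Tmem229b are shown because these genes rose in both mice and each window holds an E-box of the kind that E proteins bind. Each is the 250 bases before the start in the RefSeq table (GRCm38.p6), 5′ to 3′ on the strand of the gene (minus for all 3), with CAGGTG (or CACCTG on the other strand) and CAGCTG in capitals. Rag1 lies at chr2:101649533-101649782, Blnk at chr19:40994222-40994471 and Tmem229b at chr12:79007278-79007527. Gene positions elsewhere in the text come from the GENCODE annotation of the same build, in which Blnk and Tmem229b start further upstream, so that these windows lie inside both genes as annotated there.
Rag1: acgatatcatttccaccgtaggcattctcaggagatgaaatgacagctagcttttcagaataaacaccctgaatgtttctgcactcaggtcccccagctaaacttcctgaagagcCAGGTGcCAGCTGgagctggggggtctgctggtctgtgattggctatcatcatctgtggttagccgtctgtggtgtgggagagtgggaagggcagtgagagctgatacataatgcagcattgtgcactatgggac
Blnk: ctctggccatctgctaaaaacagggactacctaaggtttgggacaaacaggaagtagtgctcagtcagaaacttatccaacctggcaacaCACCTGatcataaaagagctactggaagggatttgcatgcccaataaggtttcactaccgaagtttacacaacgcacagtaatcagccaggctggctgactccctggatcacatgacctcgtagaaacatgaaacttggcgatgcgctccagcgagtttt
Tmem229b: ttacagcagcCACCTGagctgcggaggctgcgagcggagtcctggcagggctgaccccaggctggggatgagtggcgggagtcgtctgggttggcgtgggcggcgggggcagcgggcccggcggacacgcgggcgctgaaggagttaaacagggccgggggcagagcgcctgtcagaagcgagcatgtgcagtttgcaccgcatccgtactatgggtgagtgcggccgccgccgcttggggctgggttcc

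Of the 33 named genes that were higher in ALPs 24 had a window in that table, and of the 17 lower ones 13. CAGGTG was in 8 of 24 windows of higher genes (33.3%), 2 of 13 of lower genes (15.4%) and 17.1% of all 27025 windows. CAGCTG, which reads the same on both strands, was in 6 of 24 (25%), 2 of 13 (15.4%) and 12.8%. In Rag1 both stand 1 base apart. The EBF core CCCNNGGG was in 3 of 24 (12.5%), 1 of 13 (7.69%) and 11.7%, the RUNX letters TGTGGT in 6 of 24 (25%), 2 of 13 (15.4%) and 14.2%, and the GATA letters AGATAA in 1 of 24 (4.17%), 0 of 13 and 10.3%. The PU.1 letters GAGGAAG, the RBPJ letters TGGGAA and the cyclic AMP response letters TGACGTCA were in 1, 2 and 1 of 24 windows, against 10.4%, 21.5% and 1.62% of all. Both strands were searched and motifs were counted separately where they overlap. These shares describe letters and were not tested.

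Among signalling genes around interleukin 7 the receptor rose, on whose protein the gates were split. In that list of 16 Il7r alone was called by edgeR, while 7 had an unadjusted p under 0.05, and DESeq2 called 3 and limma-voom 1. In it 8 members lay above 0 and 8 below, and the median of 0.15 was −0.01 without the 2 cells with Cd3e reads. The shared chain Il2rg stood at 152 and 194 CPM in LMPPs and 152 and 182 CPM in ALPs, and Jak1 at 271 and 150.0 CPM in LMPPs and 217 and 197 CPM in ALPs. Socs2, a feedback inhibitor of cytokine signalling, showed 0.484 and 4.31 CPM in LMPPs and 87.0 and 92.5 in ALPs (log2 change 5.22 ± 1.08, adjusted p = 0.155) and was read in 2.13% and 4.26% of LMPPs and 56.8% and 37.5% of ALPs. Its populations did not overlap. Cish, another feedback gene, had 46.2 and 27.2 CPM in ALPs (log2 change 1.74 ± 0.61), and the survival gene Bcl2 206 and 311 CPM (log2 change 1.37 ± 0.39). Myc went the other way without a call, at 695 and 794 CPM in LMPPs and 548 and 560.1 CPM in ALPs.

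Among genes known from plasmacytoid dendritic cells Cox6a2 and Pld4 rose. Of 13 tested members these 2 were called, 11 lay above 0 and the median was 1.36. Cox6a2, a subunit of cytochrome c oxidase used in muscle and in plasmacytoid cells, rose from 4.17 and 3.63 to 264 and 600.0 CPM (log2 change 6.79 ± 0.59, adjusted p = 0.00376). Nearly every ALP read it (91.9% and 85%, against 19.1% and 8.51% of LMPPs). Pld4, an endolysosomal nuclease, rose from 8.14 and 7.92 to 76.1 and 143 CPM (log2 change 3.77 ± 0.49, adjusted p = 0.0216, or 0.0524 with the block) and was read in 39.2% and 40% of ALPs. Siglech, a lectin of these cells, had 0.821 and 4.88 CPM in LMPPs and 124 and 202 CPM in ALPs (log2 change 5.83 ± 1.07, adjusted p = 0.0966). Irf8, a factor of dendritic and B cells, had 152 and 117 CPM in LMPPs and 776 and 1315 CPM in ALPs (log2 change 2.95 ± 0.73, adjusted p = 0.247) with no overlap. Of the factors that define the lineage, Spib stood at 3.05 and 0.0692 CPM in ALPs and Tcf4 at 254 and 176 CPM in LMPPs and 227 and 257 CPM in ALPs. Klk1 and Grm8 were too low to be tested.

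The median of the Notch and T lineage list moved with the 2 cells that hold Cd3e. Of 19 Notch and T lineage genes tested Hes1 alone was called, 16 lay above 0 and the median was 3.19. Without the 2 ALPs with Cd3e reads the count called stayed at 1, with 13 of 18 members above 0 and a median of 1.11. Hes1, a target of Notch, rose from 0.126 and 0.297 to 17.3 and 7.49 CPM (log2 change 5.84 ± 0.78, adjusted p = 0.0247, or 0.0737 with the block). It was read in 16.2% and 10% of ALPs, and 1 cell gave 71.2% of its reads in mouse 18220, none of them from the cells with Cd3e. Dtx1 and Hes5, further Notch targets, had 3.95 and 1.73 CPM (Dtx1) and 10.4 and 10.5 CPM (Hes5) in ALPs. For Dtx1 the log2 ratio of ALP to LMPP, on CPM plus 1, was 2.25 and 1.41, without a call. The change of Hes5 is not given here. Gata3 stood at 22.9 and 17.4 CPM in LMPPs and 14.4 and 23.2 CPM in ALPs. Tcf7 was read in 2.70% and 10% of ALPs at 34.5 and 27.8 CPM (log2 change 9.84 ± 3.28, adjusted p = 0.436), with 27.6% of its mouse 18220 reads from the 2 cells. Several genes of T cell signalling were read in many ALPs that hold no Cd3e. Cd28 stood at 0.158 and 0.203 CPM in LMPPs and 33.8 and 61.9 CPM in ALPs (log2 change 8.04 ± 1.30, adjusted p = 0.0599), was read in 24.3% and 20% of ALPs, and had none of its reads from the 2 cells. Cd6 had 4.82 and 6.32 CPM in LMPPs and 74.2 and 88.0 CPM in ALPs (log2 change 3.86 ± 0.81, adjusted p = 0.159) with reads in 41.9% and 32.5% of ALPs, and Cd247, the zeta chain, 9.39 and 8.32 CPM in LMPPs and 74.9 and 86.4 CPM in ALPs (log2 change 3.19 ± 0.88, adjusted p = 0.329) with reads in 39.2% and 40%. Of the NK and innate lymphoid list 0 of 11 were called with or without those cells by edgeR, with 5 at an unadjusted p under 0.05, 5 called by DESeq2 and 0 by limma-voom. The median was 2.51 with them and 2.28 without. Il2rb, at 0.622 and 32.1 CPM, had 94.8% of its mouse 18220 reads from the 2 cells, Zbtb16 50.1%, and Klrd1 22.6%. Without them, on unscaled library size, these ALPs held 1.71 CPM of Il2rb against 32.1 with them, 19.6 against 38.3 of Zbtb16 and 54.4 against 68.7 of Klrd1. The 6 mature T cell genes tested held 0 calls by edgeR, 4 unadjusted p under 0.05, 4 calls by DESeq2 and 1 by limma-voom, with a median of 4.56 that was 4.00 without the 2 cells.

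Gfra1, Epha2, Slc37a2, Colq and Stum rose from few LMPP reads. Gfra1, the receptor chain for the growth factor GDNF, went from 0.326 and 0.0651 to 42.0 and 69.4 CPM (log2 change 8.17 ± 0.98, adjusted p = 0.0184, or 0.0575 with the block). The receptor tyrosine kinase gene Epha2 went from 0.0947 and 0.0869 to 12.2 and 33.9 CPM (log2 change 7.97 ± 1.18, adjusted p = 0.0404), from 9 and 12 reads in all LMPPs of the 2 mice to 1512 and 2452 in ALPs. Epha2 was read in 10.8% and 30% of ALPs, and 1 cell gave 57.1% of its reads in mouse 18218. Slc37a2, a sugar phosphate transporter of the endoplasmic reticulum, went from 0.232 and 0.0651 to 19.4 and 35.0 CPM (log2 change 7.52 ± 1.11, adjusted p = 0.0404, or 0.141 with the block) and was read in 13.5% and 20% of ALPs. Colq, the collagen tail that anchors acetylcholinesterase, went from 0.263 and 0.224 to 39.9 and 32.0 CPM (log2 change 7.20 ± 0.34, adjusted p = 0.000210), and both ALP libraries were close. Colq was among the 3 genes called in 14 of 17 alternatives, with Cnn3 and Lmo2, the most of any gene. Stum went from 0.253 and 0.434 to 29.4 and 27.5 CPM (log2 change 6.36 ± 0.60, adjusted p = 0.00559). Reads of Stum were found in 0 of 47 LMPPs of either mouse, which allows a share of up to 6.38%, and in 18.9% and 12.5% of ALPs. The size of a change from so few LMPP reads is uncertain.

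The next 6 genes rose and are in none of the lists. Cnn3, the actin-binding calponin 3, rose from 99.2 and 103 to 672 and 562 CPM (log2 change 2.61 ± 0.17, adjusted p = 0.000862) and was read in 98.6% and 90% of ALPs. Tpm4, a tropomyosin, rose from 62.1 and 87.2 to 239 and 371 CPM (log2 change 2.03 ± 0.27, adjusted p = 0.0240). Tnni1, the troponin I of slow muscle, rose from 7.25 and 2.61 to 146 and 86.6 CPM (log2 change 4.56 ± 0.66, adjusted p = 0.0362). A single cell gave 91.7% and 93.1% of the Tnni1 reads in LMPPs, whereas 47.3% and 42.5% of ALPs read it. Bfsp2, a filament protein of the eye lens, rose from 7.10 and 9.60 to 53.0 and 56.5 CPM (log2 change 2.71 ± 0.33, adjusted p = 0.0184, or 0.0737 with the block), and was read in 60.8% and 62.5% of ALPs. Kcng1, a modifying subunit of potassium channels, rose from 24.8 and 19.1 to 112 and 87.3 CPM (log2 change 2.19 ± 0.32, adjusted p = 0.0362, or 0.0741 with the block). Tmem229b, a membrane protein, rose from 40.1 and 54.2 to 294 and 273 CPM (log2 change 2.59 ± 0.28, adjusted p = 0.0118). Populations did not overlap for any of these 6 genes, as for all 54 called genes and 39.9% of all genes tested.

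Cmah, which converts a sialic acid of the cell surface, rose from 46.2 and 36.0 to 231 and 309 CPM (log2 change 2.72 ± 0.26, adjusted p = 0.00590), and its share of cells with a read from 31.9% and 19.1% to 85.1% and 90%. Tfrc, the transferrin receptor that takes up iron, rose from 54.4 and 73.3 to 243 and 283 CPM (log2 change 2.04 ± 0.25, adjusted p = 0.0184). Cd93, a surface protein of early B cells, rose from 319 and 344 to 615 and 735 CPM (log2 change 1.03 ± 0.13, adjusted p = 0.0216, or 0.0572 with the block). All 3 were already read in a share of the LMPPs. Clec12a, an inhibitory lectin, rose from 157 and 174 to 492 and 494 CPM (log2 change 1.58 ± 0.20, adjusted p = 0.0216, or 0.0776 with the block), and its share of cells from 44.7% and 42.6% to 87.8% and 82.5%. Tifa, an adaptor of innate immune signalling, rose from 84.5 and 70.8 to 233 and 286 CPM (log2 change 1.74 ± 0.25, adjusted p = 0.0325, or 0.0820 with the block). Crem, a cyclic AMP responsive factor, rose from 3.63 and 5.01 to 61.4 and 88.4 CPM (log2 change 4.11 ± 0.44, adjusted p = 0.0118), with reads in 35.1% and 35% of ALPs against 6.38% and 6.38% of LMPPs. Crem was the 1 call among 14 cyclic AMP and immediate early genes.

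Ctr9, of the Paf1 complex that travels with RNA polymerase II, rose from 124 and 111 to 804 and 690.4 CPM (log2 change 2.67 ± 0.39, adjusted p = 0.0362). Hes6, a helix-loop-helix protein that opposes Hes1, rose from 166 and 167 to 473 and 509.8 CPM (log2 change 1.56 ± 0.18, adjusted p = 0.0167, or 0.0572 with the block). Rpa2, of the single-strand DNA binding complex, rose from 95.6 and 105 to 311 and 265 CPM (log2 change 1.52 ± 0.22, adjusted p = 0.0360, or 0.102 with the block). These 3 were read in over 60% of ALPs in each mouse, from 81.1% and 65% for Rpa2 to 97.3% and 95% for Hes6. Pgls, of the pentose phosphate pathway, rose from 285 and 367 to 781 and 1043 CPM (log2 change 1.48 ± 0.20, adjusted p = 0.0233) and was read in every ALP.

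**Figure D2:**
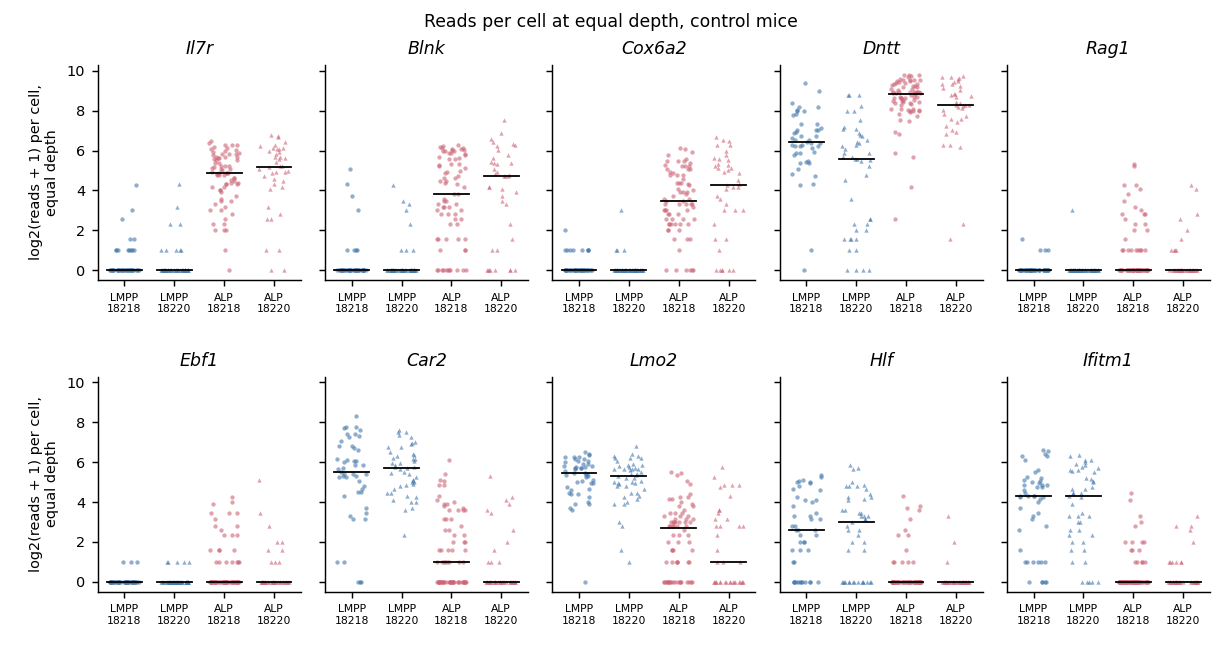
Reads per cell after thinning each kept cell to 50000 gene reads, as log2(reads + 1) on the vertical axis, for 10 genes, with 1 point per cell and a black line at the median of each library. Il7r, Blnk, Cox6a2 and Dntt had higher medians in both ALP libraries than in both LMPP libraries, while Rag1 and Ebf1 had a median of 0 reads in all 4 libraries and read in a minority of ALPs; Car2, Lmo2, Hlf and Ifitm1 fell.

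Among stem and multipotent factors Hlf and Lmo2 fell. That is 2 of 20 members, of which 15 lay below 0 with a median of −1.29. Lmo2, a bridging subunit of haematopoietic transcription complexes, fell from 878 and 830.2 to 141 and 132 CPM (log2 change −2.64 ± 0.20, adjusted p = 0.00214). It was read in 97.9% and 100% of LMPPs and still in 74.3% and 52.5% of ALPs, and the median thinned count went from 43 and 39 reads to 5.5 and 1. Hlf, a leucine zipper factor that marks stem cells, fell from 196 and 213 to 22.7 and 9.77 CPM (log2 change −3.65 ± 0.42, adjusted p = 0.0167, or 0.0661 with the block). Hlf reads were found in 74.5% and 68.1% of LMPPs and 18.9% and 7.50% of ALPs. Partners of Lmo2 were less uniform. Lyl1 stood at 349 and 376 CPM in LMPPs and 335 and 255 CPM in ALPs (log2 change −0.30 ± 0.21), Tal1 at 15.8 and 37.0 CPM in LMPPs and 8.86 and 12.7 CPM in ALPs, and Gata2 at 24.0 and 50.7 CPM in LMPPs and 4.23 and 0.0415 CPM in ALPs (log2 change −4.13 ± 2.16, adjusted p = 0.604). Hoxa9, at 423 and 283 CPM in LMPPs and 128 and 149.9 CPM in ALPs (log2 change −1.34 ± 0.40, adjusted p = 0.368), and Meis1, at 336 and 287 CPM in LMPPs and 142 and 114 CPM in ALPs (log2 change −1.28 ± 0.46), did not overlap but missed the threshold, and Runx1 stood at 146 and 95.9 CPM in LMPPs and 147 and 137 CPM in ALPs. Nfe2, a factor of platelet and red cell development outside that list, fell from 409.5 and 445 to 72.0 and 108 CPM (log2 change −2.24 ± 0.33, adjusted p = 0.0412).

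Among surface genes of stem cells Procr, Ifitm1 and Ifitm3 fell. In that list of 13 tested genes 3 fell, 11 lay below 0 and the median was −1.95. Procr, the endothelial protein C receptor used to sort stem cells, fell from 33.1 and 21.3 to 0.0646 and 0.0277 CPM (log2 change −9.12 ± 1.18, adjusted p = 0.0216, or 0.0741 with the block). That is 3141 and 2948 reads in LMPPs and 8 and 2 reads in ALPs, so the fold is uncertain. Reads of Procr were found at equal depth in 23.4% and 17.0% of LMPPs and in 0 of 74 and 0 of 40 ALPs, which allows shares of up to 4.05% and 7.5%. Ifitm1, a small interferon-induced membrane protein gene, fell from 479 and 475 to 30.6 and 17.3 CPM (log2 change −4.32 ± 0.37, adjusted p = 0.00376), and Ifitm3 from 879 and 855 to 201 and 247 CPM (log2 change −1.95 ± 0.17, adjusted p = 0.00376). Ifitm2, their neighbour on chromosome 7 outside the list, fell from 446 and 472 to 126 and 79.7 CPM (log2 change −2.16 ± 0.29, adjusted p = 0.0257, or 0.0604 with the block). These 3 genes lie between 140954837 and 141010770 and resemble each other, so their counts are uncertain where reads fit more than 1 copy. Cd34 had 1552 and 1685 CPM in LMPPs and 839 and 626 CPM in ALPs (log2 change −1.14 ± 0.35, adjusted p = 0.387) and was read in nearly all cells of both gates.

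Other genes that belong to no list fell as well. Gas6, a ligand of Tyro3, Axl and Mertk receptors, fell from 34.4 and 32.3 to 0.0566 and 0.0692 CPM (log2 change −9.03 ± 0.74, adjusted p = 0.00351), which is 3267 and 4464 reads in LMPPs against 7 and 5 in ALPs. Muc13, a transmembrane mucin, fell from 153 and 124 to 0.606 and 0.761 CPM (log2 change −7.66 ± 1.00, adjusted p = 0.0216, or 0.0716 with the block). Wfdc17, a small secreted inhibitor of macrophage activation, fell from 672 and 738 to 47.1 and 44.1 CPM (log2 change −3.95 ± 0.50, adjusted p = 0.0216, or 0.0741 with the block) and was read in 93.6% and 87.2% of LMPPs and 32.4% and 42.5% of ALPs. Gas6 was read in 19.1% and 19.1% of LMPPs and 1.35% and 0% of ALPs, so a minority of LMPPs carried its signal. Anxa1, a lipid-binding protein of anti-inflammatory signalling, fell from 133 and 169 to 33.3 and 39.2 CPM (log2 change −2.06 ± 0.25, adjusted p = 0.0215, or 0.0715 with the block). Adgrg1, an adhesion receptor of stem cells, fell from 1139 and 1262 to 374 and 435 CPM (log2 change −1.57 ± 0.21, adjusted p = 0.0270) and was still read in 95.9% and 92.5% of ALPs. Dapp1, a phosphoinositide-binding adaptor, fell from 730.1 and 696 to 239 and 250.1 CPM (log2 change −1.54 ± 0.17, adjusted p = 0.0152, or 0.0572 with the block). Afap1l1, an actin-linked adaptor, fell from 128 and 121 to 22.0 and 18.9 CPM (log2 change −2.60 ± 0.39, adjusted p = 0.0426, or 0.0820 with the block).

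Car2, a carbonic anhydrase abundant in red cell progenitors, fell from 1513 and 1163 to 146 and 73.9 CPM (log2 change −3.60 ± 0.48, adjusted p = 0.0240, or 0.0601 with the block), and its median thinned count from 44 and 52 reads per cell to 1 and 0. Gstm1, a glutathione transferase, fell from 132 and 149 to 26.6 and 22.4 CPM (log2 change −2.52 ± 0.27, adjusted p = 0.0118). Akr1c13, an aldo-keto reductase, fell from 46.1 and 47.1 to 6.86 and 7.27 CPM (log2 change −2.72 ± 0.34, adjusted p = 0.0216, or 0.0741 with the block). Gstm1 and Akr1c13 belong to families of similar copies and carry the same uncertainty as the Ifitm genes.

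**Figure D3:**
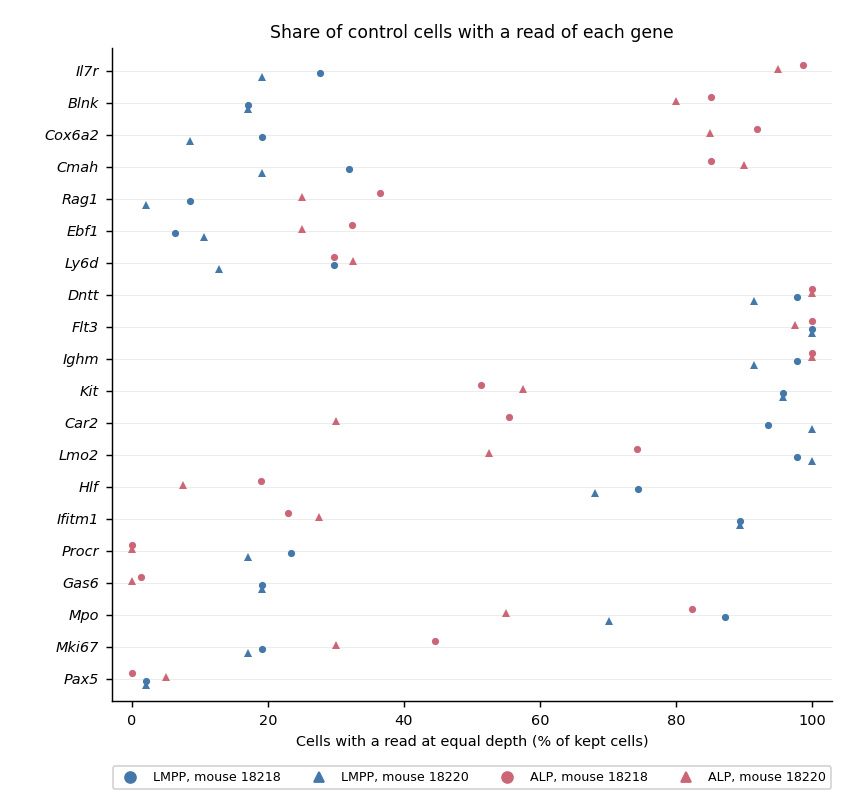
Share of kept control cells with at least 1 read after thinning to 50000 gene reads, on the horizontal axis in percent, for 20 genes in LMPPs (blue) and ALPs (red) of mouse 18218 (circle) and 18220 (triangle). Il7r, Blnk, Cox6a2 and Cmah lie at 80% or more in ALPs, Ebf1 and Rag1 between 25% and 36.5%, and Ly6d overlaps between the gates.

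All 13 myeloid priming genes tested lay below 0, with a median of −1.82. By edgeR 0 were called, with 5 at an unadjusted p under 0.05, 3 called by DESeq2 and 1 by limma-voom. Csf3r, the receptor of granulocyte colony-stimulating factor, was nearest to the threshold with 182 and 112 CPM in LMPPs and 10.9 and 9.70 in ALPs (log2 change −3.84 ± 0.72, adjusted p = 0.107) and reads in 80.9% and 48.9% of LMPPs and 16.2% and 10% of ALPs. Prtn3 was read in 46.8% and 70.2% of LMPPs and 4.05% and 7.50% of ALPs (60.6 and 263 CPM in LMPPs and 1.54 and 19.3 CPM in ALPs). Mpo, the granule enzyme of neutrophil progenitors, remained abundant, at 498 and 385 CPM in LMPPs and 421 and 182 CPM in ALPs (log2 change −0.55 ± 0.44), and was read in 82.4% and 55% of ALPs. Lyz2 had 480.1 and 577 CPM in LMPPs and 190.4 and 108 CPM in ALPs (log2 change −1.82 ± 0.43, adjusted p = 0.218), and the populations did not overlap. Of 12 erythroid and megakaryocyte genes, Car2 fell and Tfrc rose, both described above. Gata1, Pf4 and Gp1bb were under 1 CPM in all 4 libraries.

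Homing genes gave 1 call in 15. Itga4, the alpha chain of the integrin that binds VCAM-1, rose from 119 and 89.8 to 334 and 401 CPM (log2 change 1.81 ± 0.21, adjusted p = 0.0171, or 0.0572 with the block) and was read in 90.5% and 85% of ALPs. Its partner chain Itgb1 stood at 249 and 138 CPM in LMPPs and 117 and 123 CPM in ALPs (log2 change −0.69 ± 0.38), and Itgb7, the alternative partner, had 82.3% of its reads in the ALPs of mouse 18220 from the 2 cells with Cd3e (39.8 CPM on unscaled library size, and 7.23 without them). Selplg had 447 and 428 CPM in LMPPs and 752 and 965 CPM in ALPs (log2 change 0.97 ± 0.25), without overlap. Ccr7 stood at 26.9 and 28.9 CPM in LMPPs and 66.9 and 86.2 CPM in ALPs, and Ccr9 at 27.3 and 134 CPM in the ALPs of the 2 mice.

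Proliferation genes gave 0 calls by edgeR. At an unadjusted p under 0.05 were 10 G2 and M phase genes and 5 S phase genes, DESeq2 called 6 and 0 of them and limma-voom 0 and 0. All 20 G2 and M phase genes were above 0 (median 2.34), and 19 of 20 S phase genes (median 0.61), against 9833 of 19903 genes overall. Tpx2, a spindle assembly factor, had 22.5 and 11.9 CPM in LMPPs and 124 and 59.4 in ALPs (log2 change 2.41 ± 0.48, adjusted p = 0.136). Birc5 had 20.5 and 18.2 CPM in LMPPs and 148 and 57.8 CPM in ALPs (log2 change 2.42 ± 0.64, adjusted p = 0.289). Reads of Mki67, a protein of cycling cells, were found in 19.1% and 17.0% of LMPPs and 44.6% and 30% of ALPs. Summed over the list, G2 and M phase genes reached 638 and 487 CPM in LMPPs and 3352 and 1390 CPM in ALPs, so the mice differed more in ALPs. Summed levels of a population cannot tell more cycling cells from more transcript per cell. Mcm4 of the replicative helicase stood at 149 and 200.3 CPM in LMPPs and 324 and 248 CPM in ALPs (log2 change 0.71 ± 0.23, adjusted p = 0.427).

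The stress genes Fos, Jun and Egr1 differed between the mice in each population. Fos stood at 144 and 1088 CPM in LMPPs, 94.2 and 807 in ALPs and 189 and 1406 in BLPs, so mouse 18220 was the higher one in all 3 populations. Jun was ordered in the same way, at 171 and 339 CPM in LMPPs, 35.7 and 316 in ALPs and 126 and 404 in BLPs, and so was Egr1, at 28.1 and 109.9, then 17.8 and 51.3, then 4.40 and 48.4 CPM. This order was noticed in the data, and the order in other immediate early genes is not given here. The 14 cyclic AMP and immediate early genes had a median of −0.69, with 12 below 0. Interferon response genes were below 0 in 19 of 20, with a median of −0.93. By edgeR 0 were called, with 3 at an unadjusted p under 0.05 and 1 called by each of DESeq2 and limma-voom. The median per mouse was −2.04 in mouse 18218 and −0.06 in mouse 18220, and the summed level was 2635 and 1632 CPM in LMPPs and 805 and 1473 CPM in ALPs. Mx1, an antiviral GTPase, had 108 and 25.3 CPM in LMPPs and 7.42 and 38.0 in ALPs, and Oasl2 242 and 215 CPM in LMPPs and 49.4 and 84.4 CPM in ALPs (log2 change −1.77 ± 0.47, adjusted p = 0.284). The median of the interferon list was near 0 in mouse 18220.

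**Figure D4:**
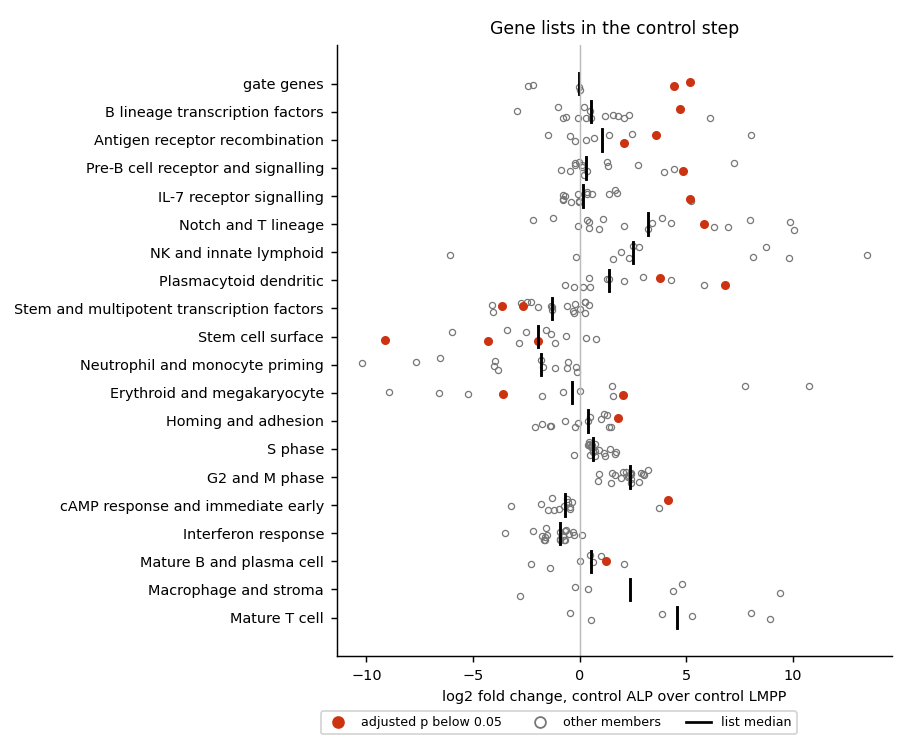
Log2 fold change of control ALP over control LMPP (horizontal axis) for each tested member of 20 gene lists, with a black bar at the list median, red points for genes with an adjusted p below 0.05 and open points for the rest. Medians of the mature T cell, T lineage, NK, macrophage and G2 and M phase lists lie to the right (4.56, 3.19, 2.51, 2.38 and 2.34). The first 3 are 4.00, 1.11 and 2.28 without the 2 cells with Cd3e reads. The macrophage median rests on 6 genes and was −2.19 with thinned cells. Medians of the myeloid and stem surface lists lie to the left (−1.82 and −1.95), while few single members were called.

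Markers of other cell types differed in level. Of 8 mature B and plasma cell genes tested Ighm alone was called, 6 lay above 0 and the median was 0.55. That list summed to 1550.2 and 1280.1 CPM in LMPPs and 2678 and 3299 CPM in ALPs, most of it Ighm. Sdc1, a surface proteoglycan of plasma cells, stood at 77.6 and 87.0 CPM in LMPPs and 105 and 219 CPM in ALPs, and Ighd at 21.6 and 59.0 CPM in LMPPs and 56.3 and 54.4 CPM in ALPs. Jchain was read in at most 5.41% of cells in any of the 4 libraries. Of 6 macrophage and stroma genes 0 were called by edgeR and by limma-voom, with 1 at an unadjusted p under 0.05 and 1 called by DESeq2. The median of those 6 was 2.38, with 4 above 0, whereas their sum was lower in ALPs. Taken per mouse, on log2 of CPM plus 1, the median was 0.55 and −0.02. The list summed to 74.4 and 20.3 CPM in LMPPs and 11.2 and 7.61 CPM in ALPs, with Cd68 as most of it (74.2 and 20.2 CPM in LMPPs and 6.45 and 6.96 CPM in ALPs). The mature T list summed to 12.9 and 15.6 CPM in LMPPs and 127 and 196 CPM in ALPs, mostly from Cd28 and Cd6, with Cd8a below 1 CPM in all 4 libraries.

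Within the ALP gate, Ebf1 was read in 24 of 74 and 10 of 40 ALPs, and Rag1 in 27 and 10. Both were read in 16 cells of mouse 18218 and 3 of mouse 18220. Among Rag1-reading ALPs 59.3% and 30% read Ebf1, against 17.0% and 23.3% of the others. The gap was wide in mouse 18218 and narrow in mouse 18220, where only 10 ALPs read Rag1. Whether the mice differ in this was not tested. All Ebf1-reading ALPs also read Il7r and Dntt in both mice (24 of 24 and 10 of 10), as did nearly all others: Il7r was read in 98% and 93.3% of ALPs without an Ebf1 read, and Dntt in 100% of them in each mouse. Lmo2 was read in 62.5% and 50% of ALPs with an Ebf1 read and in 80% and 53.3% of those without. Blnk was read in 83.3% and 60% of ALPs with an Ebf1 read and in 86% and 86.7% of those without, so most cells that read Blnk held no Ebf1 read at this depth. A cell without a read at 50000 gene reads may still hold the transcript, and cells of 1 mouse are not replicates, so these shares carry no test.

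In BLPs, the next population of the same mice, the 35 higher genes split. BLP values lay above ALP in both mice for 21, below in both for 11 and either way for 3. Among those above were Rag1 (282 and 284 CPM), Ebf1 (267 and 227 CPM), Ly6d (2793 and 3749 CPM), Colq (120.4 and 148 CPM) and Hes1 (67.3 and 82.7 CPM). Dntt (5319 and 4789 CPM), Tnni1 (92.5 and 67.9 CPM), Crem (31.0 and 50.0 CPM) and Slc37a2 (3.91 and 14.6 CPM) lay below their ALP levels. Il7r stood at 782 and 909 CPM in BLPs and Blnk at 874 and 720.4 CPM. Of the 19 lower genes 5 lay lower still in BLPs in both mice, 9 lay above ALP and 5 differed between mice. Ifitm1, at 151 and 96.1 CPM, was one that lay above. The LMPP and BLP values share the ALP libraries as their neighbour, so the 2 steps were not compared by a test.

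The same step was measured in the libraries labelled null, which share no animal with the control mice. In the order mouse 18217, then 18219, Mbd3 stood at 0.189 and 24.7 CPM in the LMPPs and 2.88 and 0.352 CPM in the ALPs labelled null, below both control mice of the same population. A single cell gave 98.3% of the 1434 Mbd3 reads in the LMPP library labelled null of mouse 18219. The part of Mbd3 that is deleted was not named in the sources used, so its reads check the labels only in part. All 54 genes called in control mice had the same sign there (54 of 54), also in each null mouse on its own (54 of 54 in both, as log2 of CPM plus 1). The share of all genes tested with the same sign in both steps is not given here, so this count has no background. By the same edgeR test the null step had 31 genes called higher and 11 lower in ALPs. The difference between the steps (null minus control) was called by edgeR for 0 of 19903 genes (0%), with a smallest adjusted p of 0.62. The unadjusted p was under 0.05 for 1044 genes. DESeq2 called 239 and limma-voom 0. Without mouse 18219 edgeR again called 0. Among the called genes named above the gap was widest upwards for Rag1, with a log2 change of 8.01 in null mice against 3.60 in control mice (difference 4.42, adjusted p = 0.828), and for Muc13, with −3.62 against −7.66. Ebf1 had 7.51 against 4.69 (difference 2.82, adjusted p = 0.620), and Il7r 7.09 against 5.18. In the other direction Gfra1 had 4.94 against 8.17, Cox6a2 3.97 against 6.79 and Epha2 5.53 against 7.97. Null LMPPs of the 2 null mice held 0.983 and 1.05 CPM of Ebf1 and 0.727 and 0.894 CPM of Rag1, and null ALPs 154 and 217 CPM of Ebf1 and 176 and 243 CPM of Rag1.

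**Figure D5:**
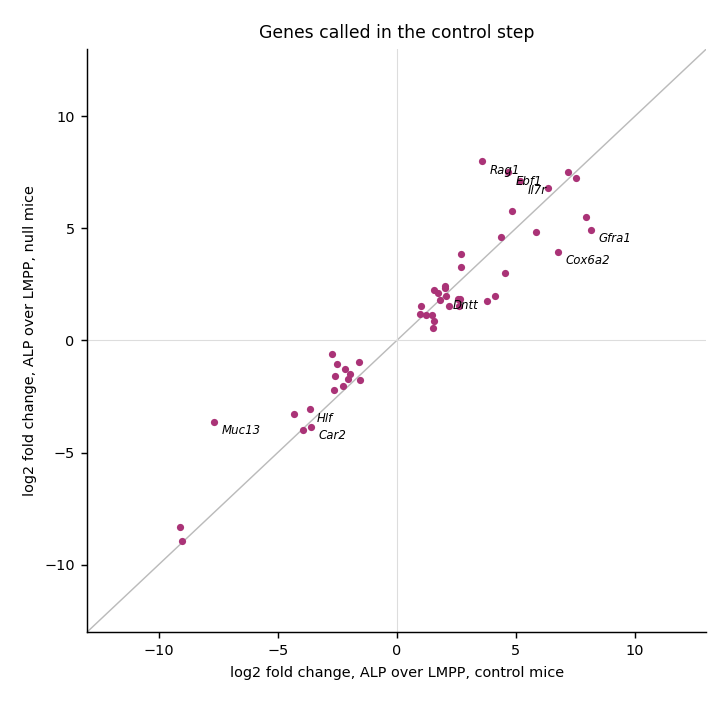
Log2 fold change of ALP over LMPP in control mice (horizontal axis) and null mice (vertical axis) for the 50 named genes called in the control step, with the line of equal change in grey. Every point has the same sign on both axes; Rag1 and Ebf1 lie above the line and Gfra1 and Cox6a2 below it, and 0 genes were called for the difference.

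Single cells carried much of some values. In the population where a called gene was higher, the median share of its reads from the largest single cell was 11.5% and 13.1% in LMPPs (19 genes) and 9.26% and 15.7% in ALPs (35 genes). The calls rest on 2 mice and on a spread shared by 6 groups. A fit of the 4 control LMPP and ALP libraries alone called 0 genes in either direction. That fit used the same libraries, so its 54 of 54 kept signs add no support.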

How the data were processed

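Whole-number read counts per gene and cell were deposited by the authors in 1 table; GSNAP, HTSeq 0.5.3p3 and mm10 are named in the submitters' processing notes, while annotation release and strandedness were not given in the sources used. Of all counts 43.2% fell on 46078 genes, 6.13% on 92 spike-ins and 50.7% on 5 summary entries, and the last 2 kinds were left out of library sizes. Symbols were given to 45143 genes, and 935 kept their identifier.

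Kept cells were summed per mouse and population into 12 libraries of 53741264 to 137497554 reads. A 6-group model (population and genotype) was fitted with edgeR 4.0.16 in R 4.3.3 (TMM factors, filterByExpr, quasi-likelihood test, Benjamini-Hochberg adjustment over all 19903 genes tested), with no block, and the control step and its difference from the null step were tested. The p-values rest on the spread between the 2 libraries of each group, pooled over all 6 groups, BLP and null ones included. That spread also holds the sampling of cells into each library, and the pairing by mouse was not used in it. Alternatives were a replicate block, RLE factors, no filter, DESeq2 1.42.0, limma-voom (limma 3.58.1), fewer libraries, all cells, and cells thinned to 50000 reads; 1 more, without cells holding 10 or more Cd3e reads, was added after seeing the data. Mouse numbers pair the populations because they came from the same animals; deviations of same-numbered control LMPPs and ALPs correlated at 0.0495. No doublet caller was run, as wells held sorted single cells. Tested on simulated data with 50 genes at each size (19495 genes tested), the control step recovered 8% of 2-fold, 40% of 4-fold, 86% of 16-fold and 92% of 64-fold changes, with 0 unchanged genes called. The changed genes were drawn only from those above a minimum mean level over all libraries. Counts were drawn with the spread estimated by the same fit, and single cells were not simulated. The simulation therefore does not check the real calls.

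Members and lists were chosen with earlier results of these data known. Genes were named where called (predicted genes, pseudogenes and receptor segments excepted, 4 of 54), as gate genes or Mbd3, or as 1 of the 4 smallest p-values of a list. Other list members named, such as Pax5, Mpo and Fos, were chosen after their values were seen.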

Additional observations from a re-analysis of the deposited data

Results flagged for a closer look

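In 4 results both control mice moved one way in the step and both null mice the other way. This difference was not tested by that rule, and 0 of 19903 genes passed the edgeR test of the difference between the steps. For Oas2, an interferon-induced enzyme, the log2 ratios of ALP to LMPP were −1.91 and −1.09 in control mice and 1.04 and 0.88 in null mice, a difference of 2.60. For Tpx2, a spindle factor, they were 2.41 and 2.23 against −0.26 and −1.14, a difference of −3.05. For Zbtb16, a factor of innate-like lymphocytes, they were 0.87 and 5.22 against −0.27 and −0.01, with a difference of −10.95 in the model of counts. Of the Zbtb16 reads in the ALPs of mouse 18220, 50.1% came from 1 of the cells with Cd3e reads, and without both such cells the level there went from 38.3 to 19.6 CPM on unscaled library size. The median over the 6 gate genes was −0.02 and −0.03 in control mice and 0.29 and 0.10 in null mice, a difference of 0.19.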

How the results depend on the processing

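The 54 genes called kept their direction in all 17 alternatives, which their lack of overlap largely fixes, and the number of calls varied. Against 35 genes higher and 19 lower, the replicate block gave 21 and 11, no low-count filter 115 and 64, DESeq2 545 and 375, thinned cells 112 and 57, and the LMPP and ALP libraries alone 0 and 0. limma-voom called 43 higher and 53 lower, so that the lower genes became the larger group. Leaving out 1 mouse or library gave 0 to 17 higher and 0 to 6 lower, fewest without mouse 18220 (0 in all) or 18218 (1) and most without the ALP library of mouse 18218 (23). Without the ALP library of mouse 18220, 14 were called, and without the LMPP library of 18218 or 18220, 11 and 8. Leaving out null mouse 18217 or 18219, which share only the estimate of spread, left 7 each. The difference between null and control steps, 0 genes, became 3 with no filter and 239 with DESeq2. The cause of these moves was not tested.

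With the replicate block 24 of the 54 calls held and 27 of the 50 named genes lost theirs, while Blk passed. Some uncalled values changed sign. Flt3 was 0.00677 with RLE factors, 0.00676 with DESeq2 and 0.00756 without cells with Cd3e reads. Over the fits that leave out 1 library or mouse, values ranged from −0.0614 to 0.0165 for Flt3, −0.446 to 1.05 for Mbd3, −0.125 to 1.36 for Ighd, −0.126 to 5.30 for Vpreb2, −4.14 to 8.57 for C1qb and 0 to 10.4 for C1qa. List medians changed sign in 1 or more alternatives for gate, interleukin 7, erythroid, immediate early, mature B and macrophage genes, and in none of the 17 for the other lists. At 50000 reads per cell, 0 of 74 or 40 cells allows shares of up to 4.05% or 7.5%.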
